A study of Homo sapiens with 8 samples.

Results

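The genes described here are 10 tubulin genes, 3 for alpha tubulin (TUBA1A, TUBA1B, TUBA1C) and 7 for beta tubulin (TUBB, TUBB2A, TUBB2B, TUBB3, TUBB4A, TUBB4B, TUBB6). They were chosen by name from the deposited tables, and all 10 were among the 18201 genes that had enough counts to be tested. The cells were oligodendrocyte progenitor cells (OPCs) differentiated from H9, an established line of human embryonic stem cells, and grown for 2 days without SOX10 overexpression on Matrigel, on VN or on VNP2. Matrigel is a basement membrane extract and was the control coating, VN is vitronectin, and VNP2 is a peptide derived from VN. Polyadenylated RNA was sequenced from 2 Matrigel libraries (replicates 2 and 3), 3 VN libraries and 3 VNP2 libraries. Every library came from the same cell line, and the labels do not say whether the replicates were separate cultures, so the p-values measure only the spread between these samples.

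Microtubules are hollow polymers of alpha and beta tubulin heterodimers. Several genes encode each subunit, and the encoded isotypes are nearly alike in their globular bodies and differ most in a short acidic tail at the carboxy terminus. The tails project from the microtubule surface, where modifying enzymes add glutamate chains to them and where motors and microtubule-associated proteins bind. Cells also read the free tubulin dimer: when it is in excess, TTC5 recognises the first residues of a nascent tubulin chain and the mRNA being translated is degraded. In the brain, TUBA1A is the major alpha isotype of young neurons, TUBB3 marks neurons, TUBB4A is the beta isotype associated with oligodendrocytes and with hypomyelinating leukodystrophy, and oligodendrocyte processes are filled with microtubules.

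The coding ends of the 7 beta genes are shown because the tail is where the isotypes differ. Each line gives the last 63 coding bases of the gene's most abundant transcript, stop codon included, read 5′ to 3′ on the coding strand, with its position on GRCh38 and the codons GAA and GAG, which encode glutamate, in capitals.
TUBB (chr6:30724335-30724397, plus strand): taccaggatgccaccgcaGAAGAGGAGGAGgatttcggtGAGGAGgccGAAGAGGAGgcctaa
TUBB2A (chr6:3153863-3153925, minus strand): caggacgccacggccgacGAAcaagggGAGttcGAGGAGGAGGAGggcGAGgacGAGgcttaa
TUBB2B (chr6:3224751-3224813, minus strand): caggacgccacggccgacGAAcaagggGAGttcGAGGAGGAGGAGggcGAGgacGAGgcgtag
TUBB3 (chr16:89935742-89935804, plus strand): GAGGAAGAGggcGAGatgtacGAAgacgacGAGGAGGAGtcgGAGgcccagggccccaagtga
TUBB4A (chr19:6495164-6495226, minus strand): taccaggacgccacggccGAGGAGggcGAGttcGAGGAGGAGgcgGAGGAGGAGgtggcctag
TUBB4B (chr9:137243494-137243556, plus strand): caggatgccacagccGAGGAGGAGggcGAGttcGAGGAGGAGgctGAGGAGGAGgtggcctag
TUBB6 (chr18:12326068-12326130, plus strand): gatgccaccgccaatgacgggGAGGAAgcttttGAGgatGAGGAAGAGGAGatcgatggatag

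Of the 20 codons before the stop, between 7 (TUBB6) and 10 (TUBB4B) encoded glutamate. Over the whole coding sequence TUBA1A and TUBA1B were 97.2% identical. TUBB2A and TUBB2B were 98.1% identical. TUBB6 shared between 80.9% (with TUBB) and 87.5% (with TUBB3) of its bases with another beta gene. At the other end, where TTC5 reads the encoded residues, TUBB and TUBB4B opened with atgagggaaatc and TUBB3 and TUBB6 with atgagggagatc. These openings and those of the other beta genes differ in bases but encode the same residues.

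This likeness bears on how well reads can be assigned to a gene. TUBB6 was the most distinct, with 9.53% of the 31-base words of its coding sequence also found in transcripts of another gene. The share was 24.2% for TUBB4B, 28.7% for TUBB4A, 55.5% for TUBB, 62.6% for TUBA1C and 73.3% for TUBA1A. It reached 81.5% for TUBB2B, 83.7% for TUBB2A and 86.3% for TUBA1B, so the split of reads inside the TUBA1 and TUBB2 families rests on fewer bases and is less certain. TUBB3 had 97.4%, nearly all of it through a readthrough transcript (AC092143.1) that was given at most 18.7 estimated counts in any library.

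The libraries held between 37997896 and 39429453 estimated counts, and the tubulin genes between 1288 (TUBA1C) and 153147 (TUBB). VN replicate 1 stood apart: its median chi-square per gene against the other VN libraries was 2.35 and 2.75, that between those was 0.781, and sampling noise alone gives 0.455. Each of the 10 tubulin genes had its highest VN value in that library, at 1.09 to 1.19 times the mean of the other VN libraries, whereas 39.6% of 12996 genes did that averaged at least 100 normalized counts. Of the markers of the labelled cell type, OLIG1, OLIG2, NKX2-2, PDGFRA and CSPG4 were present in all libraries, while SOX10, MAG and MOG, with 20, 35 and 26 estimated counts over the 8 libraries, were too low to test. In bulk RNA, fewer cells of a type and less RNA per cell cannot be told apart.

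To order the genes by abundance, TPM, a unit of transcript abundance that takes length into account, was added up per gene. On Matrigel TUBA1A stood at 3382 ± 12.9 TPM (SD, n = 2), TUBA1B at 3280 ± 35.2 TPM and TUBB at 2578 ± 25.5 TPM. TUBB2B followed at 897 ± 19.8 TPM, TUBB3 at 548 ± 20.6 TPM and TUBB4B at 493 ± 2.85 TPM. The rest were below 200 TPM on every substrate, with TUBB2A at 183 ± 4.67 TPM, TUBA1C at 124 ± 6.65 TPM, TUBB6 at 117 ± 0.700 TPM and TUBB4A at 32.3 ± 0.377 TPM on Matrigel.

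The order was nearly the same on the other substrates. On VN TUBA1A ranged from 3273 to 3508 TPM and TUBA1B from 3015 to 3339 TPM. These ranges overlapped, with replicate 1 highest in both, but TUBA1A was above TUBA1B within each VN library. The exception was at the low end. TUBA1C lay above TUBB6 on Matrigel, overlapped it on VN (70.3 to 82.2 TPM against 71.7 to 78.3 TPM) and lay below it on VNP2 (58.4 to 59.4 TPM against 70.4 to 78.1 TPM).

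**Figure D1:**
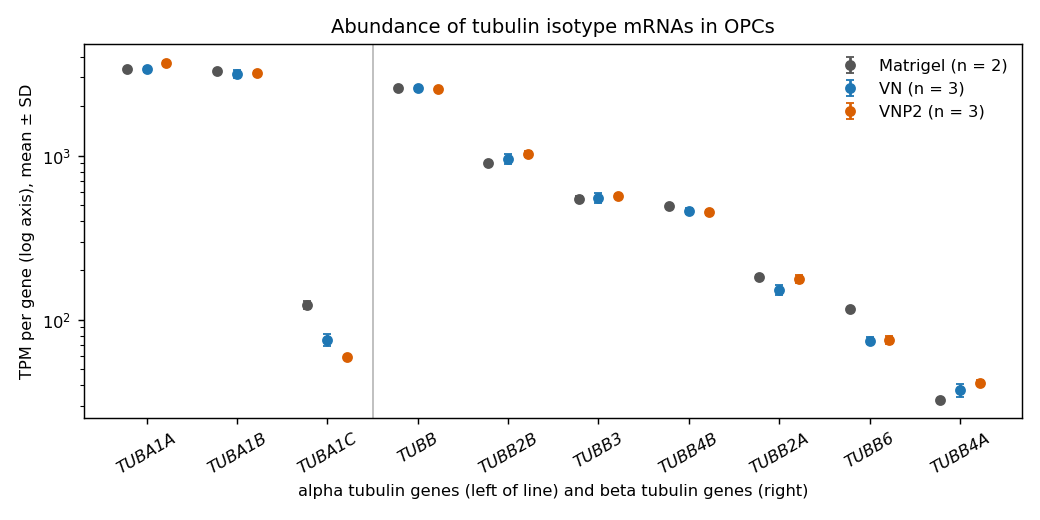
Mean TPM per gene (log axis) with SD as error bars for the 3 alpha and 7 beta tubulin genes, each group sorted by its level on Matrigel (grey, n = 2), with VN (blue, n = 3) and VNP2 (orange, n = 3) beside it. TUBA1A, TUBA1B and TUBB are the highest on every substrate, TUBB4A is lowest at 32.3 TPM on Matrigel, and TUBA1C and TUBB6 are highest on Matrigel.

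The first question was which tubulin genes differed between the substrates at all. A gene was called at a Benjamini-Hochberg adjusted p under 0.05 in edgeR's quasi-likelihood test, adjusted over all tested genes. Across the 3 substrates 5 of the 10 tubulin genes were called (TUBA1A, TUBA1C, TUBB2A, TUBB4B and TUBB6), where 19.3% of all genes were. TUBB4A lay just outside with an edgeR adjusted p of 0.0519, and DESeq2 called it (adjusted p = 0.0127). It was also called by limma at a pseudocount of 1 (adjusted p = 0.0427). In edgeR it was not called without length offsets (adjusted p = 0.132) or on the most abundant transcript alone (0.152). On VN 4 tubulin genes were lower than on Matrigel (TUBA1C, TUBB6, TUBB2A and TUBB4B) against a background of 9.60%. None was higher on VN at an adjusted or an unadjusted p under 0.05 in edgeR, or in DESeq2, and 5.66% of all genes were called higher. On VNP2 3 were lower than on Matrigel (TUBA1C, TUBB6 and TUBB4B, background 9.13%) and 1 was higher (TUBB4A, background 7.44%). Between VNP2 and VN, TUBA1C was the 1 tubulin gene called, and it was lower on VNP2 (background 2.01%). No tubulin gene was called higher there in edgeR, where 3.09% of all genes were. DESeq2 called 2 higher, beside 657 of 31592 genes. In edgeR 4 were higher at an unadjusted p under 0.05, which 3600 of 18201 genes had in either direction.

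The median log2 fold change of the 10 genes was -0.12 for VN against Matrigel, -0.09 for VNP2 against Matrigel and 0.05 for VNP2 against VN, beside 0.0044, 0.0024 and 0.0007 over all genes. Without VN replicate 1 all 10 were called across the substrates, where 27.4% of all genes were. In that setting 8 were lower on VN than on Matrigel and none higher, where 12.9% of all genes were lower and 8.57% higher. On VNP2 against Matrigel 5 were lower and 2 higher (10.8% and 9.09% of all genes), and on VNP2 against VN 1 was lower and 6 higher (4.15% and 6.86%). The contrast of VNP2 with Matrigel holds no VN library. Its libraries stayed the same, and its counts changed only through the refit. Normalization, the gene filter, the spread shared by all groups and the adjustment over genes were redone without VN replicate 1. The values of VNP2 and Matrigel did not overlap in 9 of the 10 genes, those of VN and Matrigel in 5 and those of VNP2 and VN in 2, where 48.1%, 44.4% and 23.6% of all genes did not overlap. Both contrasts with Matrigel used the same 2 Matrigel libraries.

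**Figure D2:**
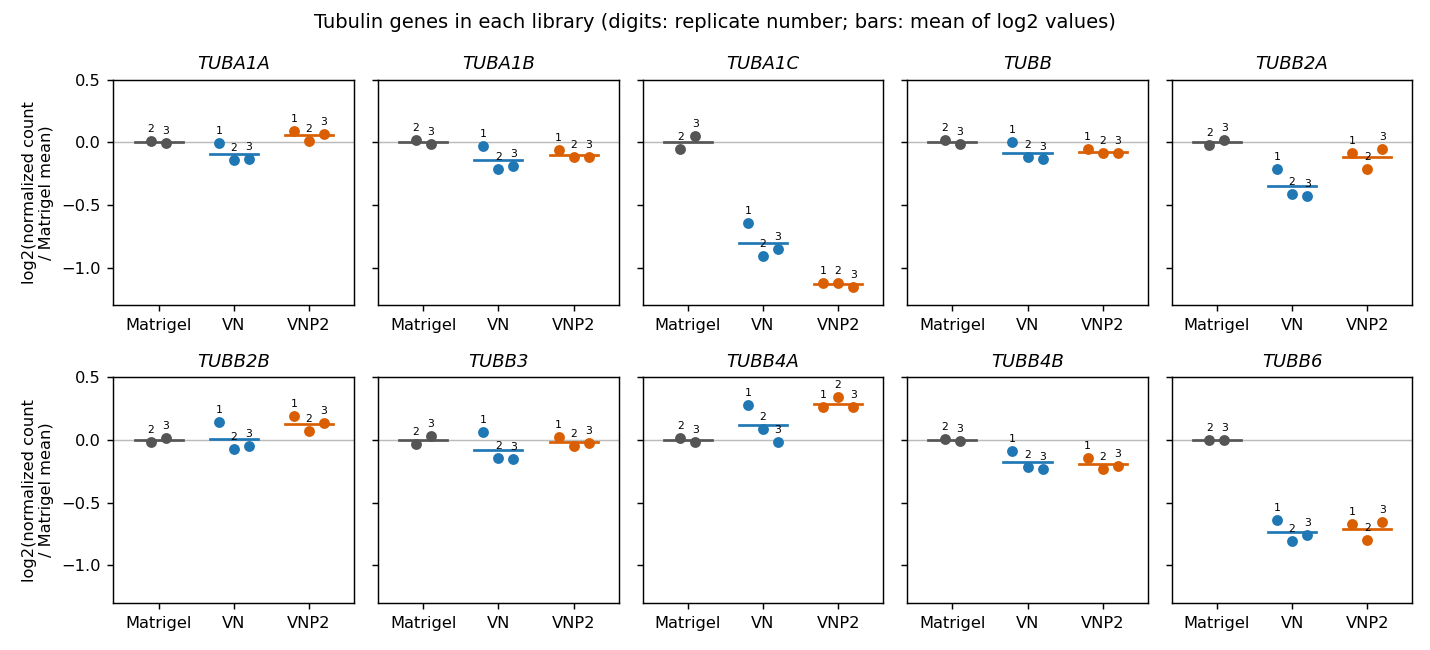
Each tubulin gene's normalized count in each library as log2 of its ratio to the Matrigel mean, with the replicate number above each point and the mean as a bar. TUBA1C falls from Matrigel to VN and further to VNP2, TUBB6 falls alike on both, TUBB4A is highest on VNP2, and replicate 1 is the highest VN library in all 10 panels.

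TUBA1C, a minor alpha isotype that most cell types express, changed most. Its normalized counts were 2803 and 3004 in the Matrigel libraries, 1860, 1547 and 1611 in the VN libraries, and 1336, 1332 and 1306 in the VNP2 libraries. The 3 groups did not overlap, Matrigel was high, VNP2 was low and VN lay between them. TUBA1C fell by 42.4% on VN (log2 fold change -0.80, SE 0.07, edgeR adjusted p = 4.83e-05) and fell by 54.4% on VNP2 (-1.13, SE 0.07, adjusted p = 2.78e-06) against Matrigel. It was lower on VNP2 than on VN by a log2 fold change of -0.34 (SE 0.07, edgeR adjusted p = 0.0165).

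Both calls against Matrigel held with each of the 8 libraries left out and under the 10 other settings in which TUBA1C was counted by itself. The call between VNP2 and VN was less firm. Without VNP2 replicate 1, 2 or 3 its adjusted p in edgeR was 0.0559, 0.0502 and 0.0649, and on the most abundant transcript alone 0.303. When the reads of TUBA1A, TUBA1B and TUBA1C were added up, the family had a log2 fold change of 0.09 for VNP2 against VN (adjusted p = 0.224). Against Matrigel that family differed by -0.13 on VN (adjusted p = 0.0832) and -0.03 on VNP2 (adjusted p = 0.692). TUBA1C was too small a part of the family for its own fall to show in that sum, which therefore says nothing about the split of reads.

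TUBB6, a beta isotype found mostly outside the nervous system, fell alike on both coatings. It had 4332 and 4338 normalized counts on Matrigel, then 2790, 2484 and 2559 on VN, and 2723, 2489 and 2752 on VNP2. Each Matrigel library was above each of the others, and VN and VNP2 overlapped. The log2 fold change against Matrigel was -0.73 on VN (SE 0.06, edgeR adjusted p = 1.95e-05) and -0.71 on VNP2 (SE 0.06, adjusted p = 1.66e-05). Between VNP2 and VN it was 0.02 (SE 0.05, adjusted p = 0.853). Both calls held under every alternative run, with log2 fold changes between -0.85 and -0.66.

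TUBB4A, a beta isotype associated with oligodendrocytes, moved the other way from these genes. Its normalized counts were 1655 and 1616 on Matrigel, then 1990, 1739 and 1620 on VN, and 1960, 2079 and 1963 on VNP2. The VNP2 libraries lay above both Matrigel libraries, while VN was spread from the Matrigel level to that of VNP2. TUBB4A rose by 22.3% on VNP2 against Matrigel (log2 fold change 0.29, SE 0.08, edgeR adjusted p = 0.0281). Against Matrigel, VN had a log2 fold change of 0.12 (SE 0.08, adjusted p = 0.321), and VNP2 had 0.17 against VN (SE 0.07, adjusted p = 0.213).

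The call for TUBB4A rested on every library of the contrast. Its adjusted p in edgeR was 0.111 and 0.159 without Matrigel replicate 2 or 3, and 0.0520, 0.0853 and 0.0566 without VNP2 replicate 1, 2 or 3. Without offsets for transcript length it was 0.0739 (log2 fold change 0.23), and on the most abundant transcript alone 0.100 (log2 fold change 0.22). In no setting was TUBB4A called higher on VN than on Matrigel, with log2 fold changes between 0.04 and 0.20.

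TUBB2A, a beta isotype abundant in brain, was lowest on VN. It had 7037 and 7245 normalized counts on Matrigel, then 6175, 5380 and 5299 on VN, and 6739, 6169 and 6876 on VNP2. VN and Matrigel did not overlap, and the highest VN library, replicate 1, lay just above the lowest VNP2 library. TUBB2A fell by 21.3% on VN against Matrigel (log2 fold change -0.35, SE 0.07, edgeR adjusted p = 0.00692). On VNP2 the log2 fold change was -0.11 against Matrigel (SE 0.07, adjusted p = 0.299) and 0.23 against VN (SE 0.06, adjusted p = 0.0583). Without VN replicate 1 the last was 0.31 with an adjusted p of 0.00440. Without Matrigel replicate 3 the call on VN was lost (adjusted p = 0.0654).

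TUBB2B, its close copy and the more abundant of the pair, showed no such dip. Its normalized counts were 41000 and 42003 on Matrigel, then 45831, 39430 and 40151 on VN, and 47290, 43542 and 45659 on VNP2. The VN libraries fell on both sides of Matrigel, and the VNP2 libraries were above it. The log2 fold change was 0.01 on VN and 0.13 on VNP2 against Matrigel (SE 0.06 for both, edgeR adjusted p = 0.930 and 0.175). With the reads of TUBB2A and TUBB2B added up, VN differed from Matrigel by -0.04 on the log2 scale (adjusted p = 0.677). TUBB2A is the minor part of that sum, which therefore does not test how reads were split between these genes.

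TUBB4B, a broadly expressed isotype that also builds the axonemes of cilia, was slightly lower on both coatings. It had 18420 and 18142 normalized counts on Matrigel, then 17194, 15770 and 15564 on VN, and 16580, 15590 and 15821 on VNP2. Both Matrigel libraries were above all others, and VN and VNP2 overlapped. TUBB4B fell by 11.5% on VN (log2 fold change -0.18, SE 0.05, edgeR adjusted p = 0.0279) and fell by 12.5% on VNP2 (-0.19, SE 0.05, adjusted p = 0.0169). On VN the adjusted p was 0.172 and 0.115 without Matrigel replicate 2 or 3 and 0.0824 and 0.0912 without VN replicate 2 or 3. On VNP2 it was 0.129 and 0.0825 without Matrigel replicate 2 or 3 and 0.0587 and 0.0639 without VNP2 replicate 2 or 3.

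TUBB, the most abundant beta isotype in these cells and one shared by most dividing cells, was not called. Its normalized counts were 153232 and 150049 on Matrigel, then 151574, 139625 and 138012 on VN, and 145798, 143119 and 143091 on VNP2. VN replicate 1 reached the Matrigel level, and the VNP2 libraries lay below it. The log2 fold change against Matrigel was -0.08 on VN (SE 0.04, edgeR adjusted p = 0.175) and -0.07 on VNP2 (SE 0.04, adjusted p = 0.235). Without VN replicate 1 both were called, with edgeR adjusted p of 0.00397 and 0.0349. The second contrast holds no VN library and changed only through the refit, which redid normalization, spread and adjustment.

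TUBA1A, the main alpha isotype here, differed across the substrates by a narrow margin (edgeR adjusted p = 0.0492). That call was lost when any library other than VN replicate 1 was left out, with adjusted p of 0.0555 to 0.165, and was 0.00143 without VN replicate 1. It was also lost without length offsets (0.0650), with limma at a pseudocount of 10 (0.0773) and on the most abundant transcript alone (0.110). TUBA1A had 121866 and 120364 normalized counts on Matrigel, then 120841, 109763 and 110242 on VN, and 128800, 122057 and 126737 on VNP2. The VNP2 libraries were the highest, and VN replicates 2 and 3 the lowest. The log2 fold change was -0.09 for VN (SE 0.04, edgeR adjusted p = 0.177) and 0.06 for VNP2 (SE 0.04, adjusted p = 0.444) against Matrigel. Between VNP2 and VN it was 0.15 (SE 0.04, adjusted p = 0.0545), and 0.20 without VN replicate 1 (adjusted p = 0.00218).

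TUBA1B, the alpha isotype of most dividing cells, pointed downward on both coatings. Its normalized counts were 113904 and 111403 on Matrigel, then 110309, 96969 and 98927 on VN, and 107698, 103936 and 104004 on VNP2. Both Matrigel libraries were above all others, and VN replicate 1 was the highest of the rest. The log2 fold change was -0.14 on VN (SE 0.05, edgeR adjusted p = 0.0767) and -0.10 on VNP2 (SE 0.05, adjusted p = 0.213). Without VN replicate 1 both passed, with edgeR adjusted p of 0.000828 and 0.0209. For VNP2, where no VN library is compared, that change came only through the refit without that library.

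TUBB3, the beta isotype used as a neuronal marker, had 22108 and 23150 normalized counts on Matrigel, then 23673, 20513 and 20365 on VN, and 23065, 21918 and 22301 on VNP2. The 3 groups overlapped. The log2 fold change was -0.07 on VN (SE 0.06, edgeR adjusted p = 0.463) and -0.01 on VNP2 (SE 0.06, adjusted p = 0.918), the smallest change from Matrigel to VNP2 among the tubulin genes. On TPM, which sit higher on VN and VNP2, the log2 ratios to Matrigel were 0.0089 and 0.05, so the sign depends on the scaling. Without VN replicate 1, TUBB3 was called lower on VN than on Matrigel (adjusted p = 0.0144) and higher on VNP2 than on VN (adjusted p = 0.0231).

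**Figure D3:**
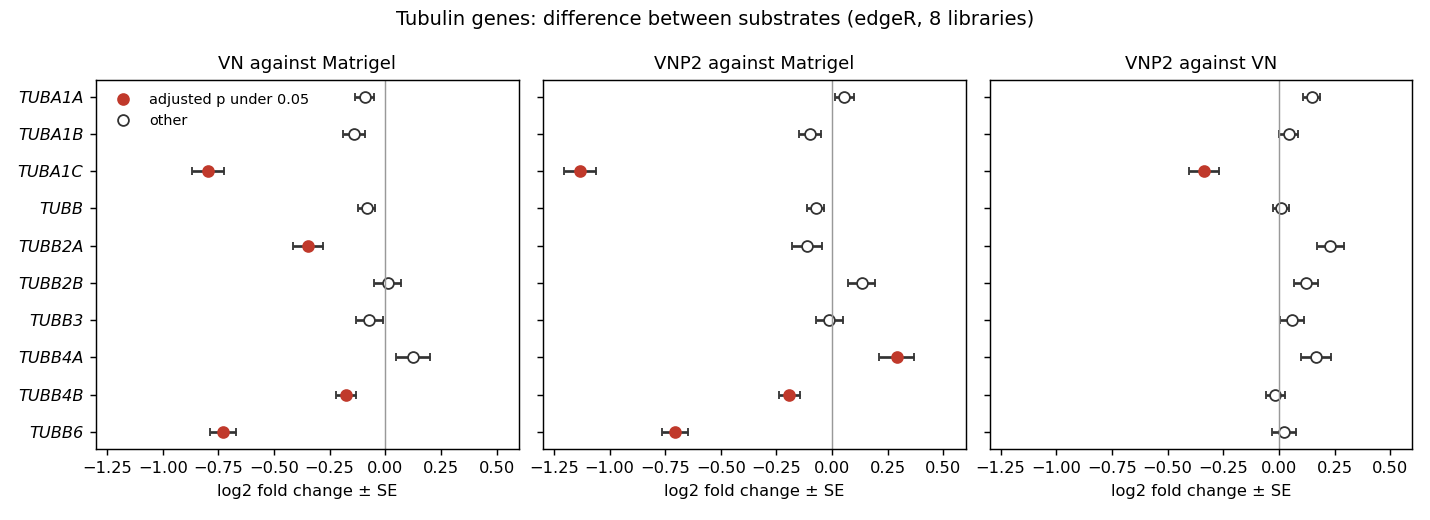
Log2 fold change with its SE for the 10 tubulin genes in the 3 comparisons, filled where the Benjamini-Hochberg adjusted p of edgeR was under 0.05. TUBA1C (-0.80 and -1.13) and TUBB6 (-0.73 and -0.71) lie far to the left in both comparisons with Matrigel, and TUBA1C alone is filled between VNP2 and VN.

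Shares within each pool do not depend on how libraries were scaled, and they were described without a test. TUBA1C made up 1.74 and 1.90% of alpha tubulin TPM on Matrigel, then 1.187, 1.105 and 1.136% on VN, and 0.837, 0.873 and 0.839% on VNP2. TUBA1A held 49.8 ± 0.114% on Matrigel, 51.1 ± 0.426% on VN and 53.0 ± 0.465% on VNP2 (SD, n = 2, 3 and 3). TUBA1B went from 48.3 ± 0.224% to 47.8 ± 0.385% and 46.2 ± 0.448%. The VNP2 libraries were thus apart from the others in all 3 alpha shares.

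Within beta tubulin, TUBB held 53.2 ± 0.712% of TPM on Matrigel, 53.6 ± 0.658% with VN and 52.3 ± 0.657% with VNP2. TUBB2B held 18.5 ± 0.343%, 19.9 ± 0.443% and 21.0 ± 0.433%, and its groups did not overlap. TUBB6 held 2.42 ± 0.00595% on Matrigel, 1.55 ± 0.0280% on VN and 1.53 ± 0.0630% on VNP2. TUBB4A held 0.666 ± 0.0101%, 0.773 ± 0.0369% and 0.843 ± 0.0447%, and in this measure each VN library, at 0.733 to 0.805%, lay above both Matrigel libraries. TUBB4B held 10.2 ± 0.0945%, 9.60 ± 0.0939% and 9.20 ± 0.111%, again without overlap. TUBB3 stayed between 11.03 and 11.75% in all libraries.

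The pools as wholes moved little. Alpha tubulin came to 6785 ± 41.4 TPM on Matrigel, 6579 ± 307 TPM with VN and 6951 ± 147 TPM with VNP2, and beta tubulin to 4848 ± 17.0, 4808 ± 227 and 4910 ± 98.3 TPM. Alpha made up 58.3 ± 0.234% of both pools on Matrigel, 57.8 ± 0.216% on VN and 58.6 ± 0.0305% on VNP2. TPM are not corrected for composition: between VN and Matrigel the log2 ratio of mean TPM had a median of 0.07 over 12996 genes, where that of normalized counts had -0.01. On TPM the log2 ratio of VN to Matrigel was therefore nearer to 0 for TUBB4B (-0.09) and TUBB (-0.0017), and TUBA1C (-0.71) and TUBB6 (-0.65) remained far below.

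By transcript, 1 annotated form held at least 98.51% of the counts of TUBA1A, TUBA1B, TUBB, TUBB2A, TUBB2B, TUBB3 and TUBB4B in every library. TUBB4A-201 held 96.15 to 99.07% of TUBB4A, and TUBB6-201 84.74 to 88.27% of TUBB6. TUBA1C was split: the coding TUBA1C-202 held 44.0 to 56.4%, TUBA1C-203, which retains an intron, 25.7 to 38.8%, and the short TUBA1C-204 14.3 to 17.8%. All 3 were lower away from Matrigel. TUBA1C-202 had 1631 and 1470 estimated counts on Matrigel, then 972, 685 and 811 on VN, and 669, 588 and 585 on VNP2. TUBA1C-203 had 744 and 874 on Matrigel, then 497, 545 and 511 on VN, and 428, 426 and 516 on VNP2, so VN and VNP2 overlapped in that form. In the annotation the span of TUBA1C (chr12:49188736-49274603, plus strand) overlaps that of TUBA1A (chr12:49184796-49189324, minus strand), and the libraries were stranded.

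The 2 genes whose pattern over the 8 libraries was most like that of each tubulin gene called across the 3 substrates were found among 12986 other genes by the root mean square difference of centred log2 normalized counts. For TUBA1C they were ELF4 (0.0755) and AJUBA (0.0763), and AJUBA averaged 6781 normalized counts in the Matrigel libraries, 4143 with VN and 3264 with VNP2. For TUBB6 they were OPTN (0.0628) and RAB34 (0.0665). TUBB4B was closest to PKM (0.0184) and TINF2 (0.0206), TUBB2A to TMEM120A (0.0221) and RPL37 (0.0445), and TUBA1A to RAB1B (0.0196) and EMC10 (0.0198).

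The remaining tubulin genes were scarce or little changed. Of 12 others, 7 were tested. TUBA3C, TUBA3D, TUBA3E and TUBAL3 had at most 3 estimated counts over all libraries, and TUBB1 had 30. TUBG1, the gamma tubulin that nucleates microtubules, fell on VN (log2 fold change -0.17, SE 0.05, edgeR adjusted p = 0.0352) and on VNP2 (-0.18, SE 0.05, adjusted p = 0.0241). TUBA4A was called lower on VN, at a mean of 5.47 normalized counts against 16.3 on Matrigel. DESeq2 called 1 of these 2 genes lower on VN. TUBG2, TUBD1, TUBE1, TUBA8 and TUBB8 were not called in any pair.

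Tubulin folding factors were lower on both coatings in part. They are prefoldin, the chaperonin CCT, which folds actin and tubulin, and the cofactors that assemble the dimer. Of 21 genes 8 were lower on VN and 6 lower on VNP2 than on Matrigel, with medians of -0.12 and -0.11. ARL2 (-0.27), CCT5 (-0.26) and PFDN1 (-0.25) fell most on VN, and PFDN1 (-0.24), TCP1 (-0.20) and CCT2 (-0.16) on VNP2. None was called higher against Matrigel in edgeR or DESeq2, and none was called between VNP2 and VN, where 1 had an unadjusted p under 0.05. The autoregulation genes TTC5, SCAPER and CNOT11 were not called in any pair by edgeR or DESeq2, with 1 unadjusted p under 0.05, for VNP2 against VN. Of 10 genes of the gamma-tubulin ring complex none was called by either tool, with 2, 0 and 1 at an unadjusted p under 0.05 in the 3 pairs. Of all 18201 genes, 5462 had an unadjusted edgeR p under 0.05 for VN and 5270 for VNP2 against Matrigel, and 3600 for VNP2 against VN.

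Among 22 tested modifying enzymes, 2 rose and 1 fell on VN, and 4 rose and 1 fell on VNP2 against Matrigel. These counts, like those of the other lists, are to be read beside the shares of all genes, which for VN were 5.66% higher with 9.60% lower and for VNP2 7.44% higher with 9.13% lower, and the count on VN is near that background. In DESeq2 1 rose and 2 fell for VN, while 3 rose and 0 fell for VNP2. ATAT1, which acetylates alpha tubulin, rose on both (log2 fold change 0.31 and 0.35), as did TTLL1, a glutamylase that extends chains on tubulin tails (0.22 and 0.26). SVBP, partner of the detyrosinating vasohibins, rose on VNP2 (0.20), TTLL12 fell on VN (-0.23), and AGBL3, a carboxypeptidase, fell on VNP2 against Matrigel (-0.54) and against VN (-0.55) in edgeR, and DESeq2 called it in neither.

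Of 19 proteins that bind the microtubule lattice, 5 rose and 4 fell on VN, and 5 rose and 3 fell on VNP2 against Matrigel. DCX, the doublecortin of migrating neurons, rose most (0.52 and 0.72), followed by MAP6 on VN (0.28) and TPPP3 on VNP2 (0.35). MTCL1 (-0.43 and -0.49) and MAP4, the main such protein of cells other than neurons (-0.36 and -0.39), fell on both. TPPP3 fell on VN (-0.29), and against VN it was higher on VNP2 by 0.64, beside TPPP, a polymerization promoter of oligodendrocytes (0.34), and DCX (0.20), while MAP2 was lower (-0.16). Of 14 destabilizing and severing proteins 3 rose on VN and 4 on VNP2, and all of these were stathmins, which bind free tubulin. STMN2 rose by 0.50 and 0.72 and STMN4 by 0.27 and 0.51 on the log2 scale. Of 16 end-binding proteins 3 rose on VN, CAMSAP1 (0.28), CLASP2 (0.18) and NAV1 (0.14), and 1 fell, MAPRE2 (-0.17). On VNP2 3 rose, NAV3 (0.48), NAV1 (0.45) and CLASP2 (0.25). The medians of the lists lay between -0.12 and 0.14 in these pairs.

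**Figure D4:**
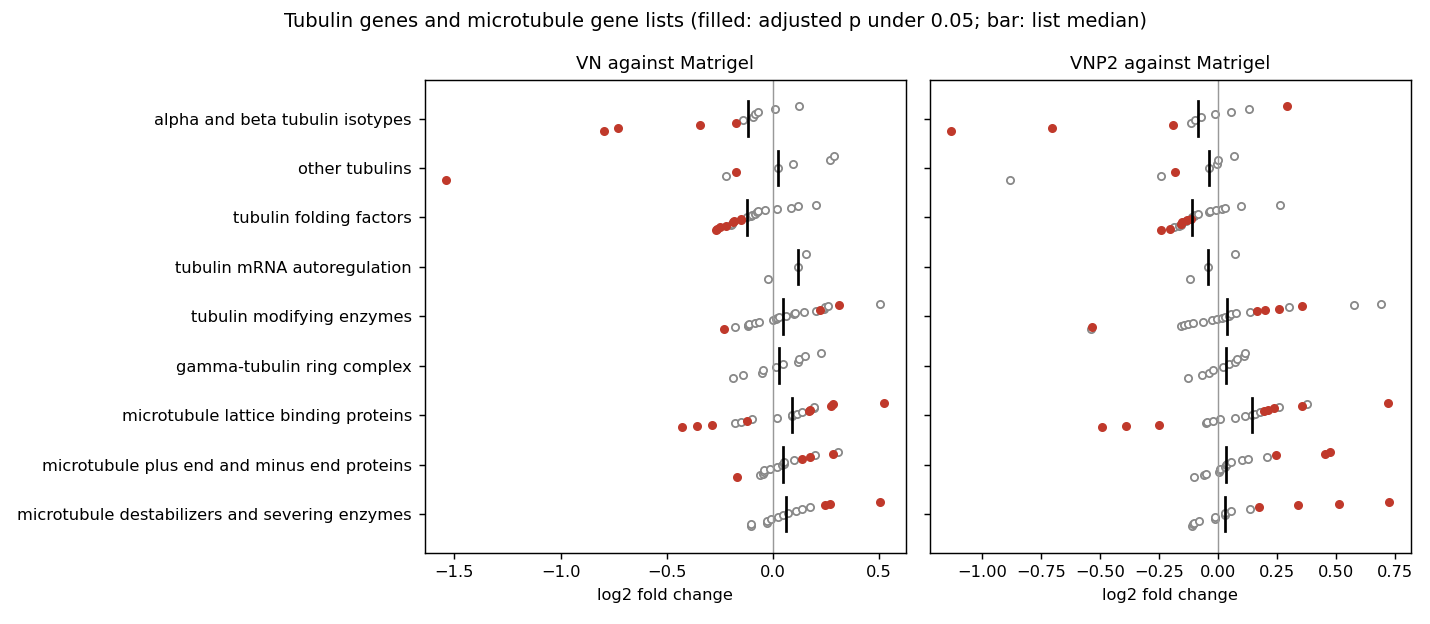
Log2 fold change of each tested gene on VN and on VNP2 against Matrigel, by list, with the 10 tubulin genes on top, filled where the edgeR adjusted p was under 0.05, and with each list's median as a bar. Called folding factors all lie to the left of 0 and called destabilizers all to the right, while lattice binding proteins hold both.

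Markers of cell types that these cultures could hold moved with the substrate too, and their part in the tubulin values was not tested. Of 12 neuronal genes, which include DCX and STMN2, 7 rose and 1 fell on VN and 10 rose on VNP2 against Matrigel, and their summed level was 501.5 to 508.5 TPM on Matrigel, 610.0 to 634 TPM on VN and 747 to 769 TPM on VNP2. TUBB3 was not called in these comparisons. Of 10 tested genes of the oligodendrocyte lineage, 3 rose on VN and 1 fell, MYRF (log2 fold change -0.87). On VNP2, where TUBB4A was called, 6 rose and 2 fell, MYRF (-0.68) and MBP (-0.41). The sum of the lineage genes was 216 to 217, 247 to 257 and 248 to 261 TPM, so VN and VNP2 overlapped. Of 10 genes of motile cilia, 2 fell on VN and 4 rose on VNP2 against Matrigel, with sums of 126 to 127, 127 to 136 and 176 to 191 TPM, while TUBB4B was lower on both.

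Mesenchymal genes were divided. Of 9, 3 rose and 3 fell on VN, and 4 rose and 3 fell on VNP2. TAGLN, a contractile gene of smooth muscle and fibroblasts, had mean normalized counts of 14125 in the Matrigel libraries, 3253 with VN and 2884 with VNP2, and ACTA2 had 761, 389.5 and 427, whereas LUM and DCN, made by fibroblasts, rose on both coatings. The summed level, at 1004 to 1038 TPM on Matrigel, was 696 to 733 on VN and 606 to 635 on VNP2. COL1A1, the most abundant of the list, averaged 24749, 17050 and 9341 normalized counts on Matrigel, VN and VNP2. The median log2 fold change of the 9 genes against Matrigel was 0.105 on VN and 0.279 on VNP2. Sum and median thus moved in opposite directions. Of 9 cycling genes 3 rose on VN and 4 fell on VNP2 against Matrigel, with sums of 1355 to 1366, 1477 to 1539 and 1299 to 1353 TPM. Of 7 tested neural progenitor genes 3 rose and 2 fell on VN and 2 rose and 2 fell on VNP2, and their sum, mostly VIM and NES, was 3643 to 3712, 3144 to 3204 and 3422 to 3468 TPM. Astrocyte genes summed to 207 to 217, 127 to 140 and 154 to 164 TPM, with GFAP and AQP4 too low to test, and pluripotency genes to 91.2 to 95.9, 79.9 to 81.9 and 75.6 to 79.6 TPM.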

How the data were processed

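The authors trimmed reads from stranded libraries with TrimGalore and quantified them with Salmon on GENCODE v32 transcripts (GRCh38.p13 in the submitters' processing notes). The deposited files hold Salmon's estimated counts and TPM per transcript, and gene-level normalized counts, a signal the authors made by dividing counts by DESeq2 1.27.12 normalization factors. Versions of the other tools are not given in the sources used here. Here, 205225 of 226608 transcripts, with 98.8 to 98.9% of the counts, were matched by identifier to GENCODE v29. Estimated counts were summed per gene, rounded and fitted with transcript length offsets in 1 model of all 8 libraries (edgeR 4.0.16, R 4.3.3, TMM, filterByExpr with minimum count 10 and total 15, 18201 genes, two-sided tests). Normalized counts of the 10 genes lay within a ratio of 0.999 to 1.001 of the authors' values. The SE is approximate, computed as the absolute log2 value over the root of F.

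Members and lists were chosen with earlier results of these data known. All 10 genes are named, with up to 3 called genes per list, pair and direction that had the largest changes, and for each called tubulin gene the 2 genes closest in pattern. On simulated data of 18043 genes, 187 and 192 of 200 changed genes and 11 and 7 others were called in the comparisons of VNP2 with Matrigel and with VN. The changed genes were well counted, and no simulated library stood apart. Their changes were larger than those of every tubulin gene but TUBA1C and TUBB6. The simulation therefore does not show how often smaller changes would be called. Alternatives were DESeq2 1.42.0, RLE, no length offsets, no filter (1 count in total), 50 counts in every library, a replicate block, pair-only fits, limma 3.58.1 on the deposited normalized counts (pseudocount 1 or 10), the most abundant transcript, near-identical genes added up, normalized counts in place of TPM for shares, and leaving out each library. Words of 31 bases and coding ends come from GENCODE v29. Coding ends of the alpha genes are not reported here. Python 3.11.15, pandas and matplotlib were used for tables and plots.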

Additional observations from a re-analysis of the deposited data

How the results depend on the processing

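The number of tubulin genes called moved with several choices, and so did that of all genes. Across the 3 substrates 3518 of 18201 genes were called, and 4975 of 18124 without VN replicate 1. It was 2651 of 18125 without VNP2 replicate 3, 3992 of 18201 with the replicate block and 3733 of 31592 with DESeq2. Without length offsets it rose to 3804 of 18201, where fewer tubulin genes were called. For VNP2 against VN it was 928 of 18201, and 1996 of 18124 without VN replicate 1. DESeq2, RLE, no filter, at least 50 counts in every library and limma at a pseudocount of 1 each called 6 tubulin genes across the 3 substrates. The replicate block called 7. Across the 3 substrates it was 5, and 3 without length offsets, 2 with near-identical genes added up, and 2 to 10 with 1 library left out. For VN against Matrigel it was 4, and 2 with near-identical genes added up, 7 with the replicate block, and 2 to 8 with 1 library left out. For VNP2 against Matrigel it was 4, and 2 without length offsets, 7 with only the libraries of the pair, and 2 to 7 with 1 library left out. For VNP2 against VN it was 1, and 3 with DESeq2, with no filter and with limma at a pseudocount of 1, 2 with at least 50 counts in every library, 4 with the replicate block, 0 with the most abundant transcript or with near-identical genes added up (edgeR), and 0 to 7 with 1 library left out. All 4 highest counts came without VN replicate 1. The lowest came without Matrigel replicate 3 across substrates and on VN, without either Matrigel library or VNP2 replicate 2 or 3 for VNP2 against Matrigel, and without VNP2 replicate 1 or 3 for VNP2 against VN. The cause was not tested, except that the added-up genes hide minor members by construction. TUBA1C changed sign for VNP2 against VN when added up with TUBA1A and TUBA1B (log2 fold change 0.094). The alpha share of both pools was 48.9, 48.3 and 49.3% on Matrigel, VN and VNP2 with normalized counts, which keep transcript length, in place of TPM.

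Of the log2 fold changes of single genes, 209 kept their side of the threshold with 1 library left out, 14 gained a call and 17 lost it. Under the other settings 300 kept it, 20 gained and 9 lost it. Same-numbered libraries did not deviate together (r between -0.045 and 0.016), so the replicate block pairs by number only and with it 7 genes were called across the substrates. With 1 Matrigel library left out, the remaining library is assumed to vary like the other groups. How reads were split between near-identical genes of the TUBA1 and TUBB2 families was not tested.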
